A study of Homo sapiens with 2 samples.

Results

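Intermediate filament genes were followed cell by cell in SK-N-BE(2)-C, a human neuroblastoma cell line, with and without induction of HRASV12. The 10 genes were picked by symbol from the deposited gene annotation, out of 36027 genes: VIM and NES as the filaments of mesenchymal and progenitor cells, NEFL, NEFM, NEFH, INA and PRPH as the filaments of neurons, and KRT8, KRT18 and KRT19 as keratins of simple epithelia. All cells were of its derivative, named with the suffix pIND-HRASV12. The name and the series' design describe an inducible, ectopic gene for HRASV12, a mutant of the RAS GTPase HRAS that remains locked in its active state. The induced library came from cells given doxycycline, the drug that switches on the gene, at 100 ng/ml for 13 days, and the control library from untreated cells of the same line. The control cells carried the inducible gene too but received no doxycycline, so effects of the drug and of HRASV12 cannot be told apart. There was 1 library per group, so no replicate check and no test were possible, and every difference is between these libraries and not between conditions. Intervals in brackets are 95% intervals that cover counting error only.

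Intermediate filaments are rope-like polymers of the cytoplasm whose subunits differ by cell type. Vimentin marks mesenchymal and migrating cells, nestin neural progenitors, the neurofilament subunits with alpha-internexin and peripherin fill the axons of neurons, and keratins form obligate pairs of an acidic and a basic chain in epithelia. In neuroblastoma, cell states of mesenchymal character are known for high vimentin, and adrenergic, neuron-like states for neurofilaments and peripherin.

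The induced library held 666 cells and 80359736 counts (median 111582 per cell) and the control library 956 cells and 95350640 counts (median 85821 per cell). Levels are given as counts scaled to the total of the library (CPM). HRAS itself stood at 161 CPM after induction and 109 CPM without it, which gives a ratio of 1.47 (1.43 to 1.51). Since molecules were counted at their 3' ends, the transgene and the native transcript cannot be told apart, and a transgene without the native end would be missed. No barcode was shared between the libraries. The median mitochondrial percent of counts was 11.1 after induction against 13.2, and its 5th percentile 1.44 against 8.52. Adrenergic markers of the line were present, with PHOX2A at 899 against 701 CPM, while TH, which encodes tyrosine hydroxylase, lay below 10 CPM in both libraries.

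RefSeq (GRCh38.p14) gave a promoter for 5 of the 10 genes, namely NES, VIM, INA, PRPH and KRT8. NEFL, NEFM, NEFH, KRT18 and KRT19 had no entry. The 250 bases before the start of transcription are shown for VIM, the gene with the largest difference between the libraries, and for PRPH, a neuronal filament gene with another promoter layout. Both lie on the plus strand, VIM at chr10:17227991-17228240 and PRPH at chr12:49294897-49295146. Capitals mark the GC box GGGCGG in VIM, which starts 46 bases before the start site, and the TATA box letters TATAAA in PRPH, which start 31 bases before it.
VIM promoter: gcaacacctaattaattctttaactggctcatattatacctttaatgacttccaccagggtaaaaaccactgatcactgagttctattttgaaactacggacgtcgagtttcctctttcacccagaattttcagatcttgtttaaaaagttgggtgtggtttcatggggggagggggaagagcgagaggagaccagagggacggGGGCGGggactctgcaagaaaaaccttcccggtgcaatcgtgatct
PRPH promoter: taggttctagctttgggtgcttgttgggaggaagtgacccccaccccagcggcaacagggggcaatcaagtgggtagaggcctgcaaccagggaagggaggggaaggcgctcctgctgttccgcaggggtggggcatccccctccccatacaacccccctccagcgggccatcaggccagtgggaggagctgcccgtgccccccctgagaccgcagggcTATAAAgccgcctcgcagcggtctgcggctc
On both strands, GGGCGG was found in 3 of the 5 promoters (NES, VIM and INA) and in 42.6% of all 35116 promoters of the same length. TATAAA was found in 1 of 5 (PRPH) and in 10.7% of all. The site of AP-1, a factor downstream of RAS signalling, was searched as TGANTCA and found in 0 of 5 and in 6.57% of all. No motif contains another, and a match or its absence describes only these windows.

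The filament genes were higher in the induced library as a group, vimentin by far the most. All 10 had a higher level in the induced library by some amount, but the share of all genes doing so was not counted. NEFH rested on 16 against 7 counts, and KRT19 had ratios of only 1.00 to 1.06 within cell cycle phases of thinned cells. A gene was called measured where 1 of the libraries or both had at least 10 CPM. Of the 8 filament genes that were measured, 5 were higher by 1.5-fold or more (VIM, KRT18, NEFL, PRPH and NEFM) and 0 were lower by that much. Over all 9017 measured genes, 10.3% were higher and 7.73% lower by 1.5-fold or more. At 2-fold, VIM and KRT18 were higher and 0 genes were lower, against 4.01% and 1.26% of all measured genes. The median log2 ratio of the 8 measured filament genes was 0.72, and that of all measured genes was -0.04. Log2 ratios are of induced over control with 1 CPM added to both. KRT8 and NEFH were under the 10 CPM floor. KRT18 was under it as well, with a log2 ratio of 0.18, once 2 clusters of cells were left out.

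**Figure D1:**
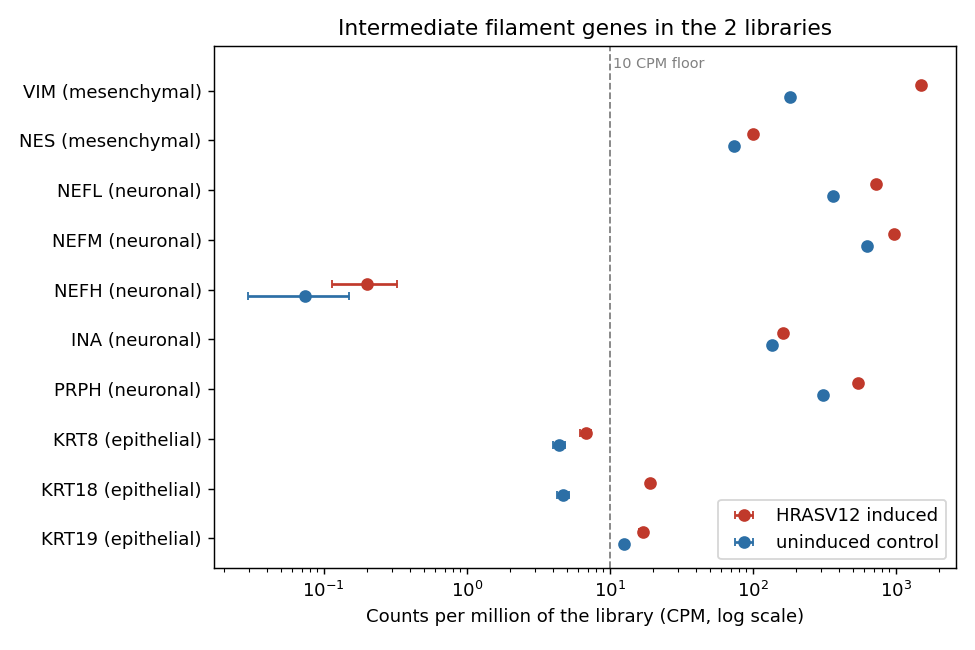
Level of each filament gene in CPM (log axis) in the induced (red) and control (blue) library, with 95% counting intervals that are mostly narrower than the points; the dashed line is the floor of 10 CPM. VIM stands at 1510 against 182 CPM, the neuronal genes other than NEFH lie closer together, and NEFH, with 16 and 7 counts, lies far below the rest.

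VIM, which encodes vimentin (ENSG00000026025.16), stood at 1510 CPM in the induced library (121336 counts) and at 182 CPM in the control library (17399 counts). The ratio was 8.27 (8.14 to 8.41), the 23rd highest of the 9017 measured genes. NES, which encodes nestin (ENSG00000132688.11), stood at 99.7 against 73.9 CPM, a ratio of 1.35 (1.31 to 1.39). The other mesenchymal and progenitor filament thus differed far less than VIM and did not reach 1.5-fold. NES reached 1.5-fold with DESeq2 size factors (log2 ratio 0.59), in G1 cells alone (0.64) and with a limit on mitochondrial percent and MALAT1 (0.65). It also reached 1.5-fold without the clusters of cells highest in endothelial markers and lowest in MALAT1, described below.

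The neuronal filament genes were higher in the induced library as well. NEFL, the light neurofilament subunit (ENSG00000277586.2), stood at 721 against 364 CPM, a ratio of 1.98 (1.96 to 2.01). NEFM, the medium subunit (ENSG00000104722.14), stood at 975 against 629 CPM, a ratio of 1.55 (1.53 to 1.57). PRPH, which encodes peripherin of peripheral neurons (ENSG00000135406.14), stood at 543 against 309 CPM, a ratio of 1.76 (1.73 to 1.78). INA, which encodes alpha-internexin (ENSG00000148798.11), was closest between the libraries, at 163 against 135 CPM and a ratio of 1.21 (1.18 to 1.24). NEFH, the heavy subunit of mature axons (ENSG00000100285.10), had 16 counts after induction and 7 without it, too few to describe a difference beyond a ratio of 2.71 (1.06 to 7.80). NEFM was near the 1.5-fold line and was under it when scaled to totals free of ribosomal protein and mitochondrial genes (log2 ratio 0.54). PRPH was under that line in G1 cells (0.48).

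The heavy subunit was thus all but absent while the other neurofilament subunits were abundant. The balance of NEFL to NEFM also differed: 0.740 NEFL counts per NEFM count in the induced library (0.732 to 0.748) and 0.579 in the control library (0.571 to 0.586). Each gene is counted by its own 3' end and its own share of uniquely assigned reads, so this ratio compares the libraries and not the subunits' amounts.

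The keratins were low in both libraries, near or under the floor. KRT18, the acidic partner of KRT8 (ENSG00000111057.11), stood at 19.2 against 4.69 CPM (1543 and 447 counts), a ratio of 4.10 (3.68 to 4.56). Without 2 of the 9 clusters of cells it stood at 4.11 against 3.53 CPM, under the floor. KRT8, its basic partner (ENSG00000170421.12), stood at 6.78 against 4.38 CPM (545 and 418 counts), a ratio of 1.55 (1.36 to 1.76). KRT19, an acidic keratin of simple epithelia (ENSG00000171345.13), stood at 17.0 against 12.6 CPM, a ratio of 1.34 (1.24 to 1.45). KRT8 and KRT18 have many near-identical pseudogenes, and reads that fit several copies can be lost or split, so their levels are uncertain. The 17 pseudogene rows of KRT8 summed to 4.93 against 4.76 CPM, and the 22 of KRT18 to 4.63 against 7.16 CPM, so the KRT18 copies were lower in the induced library while KRT18 was higher.

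Summed by class, the mesenchymal pair stood at 1610 against 256 CPM (ratio 6.28), the 5 neuronal genes at 2403 against 1437 CPM (1.67) and the 3 keratins at 42.9 against 21.7 CPM (1.98). All 10 genes together made up 4056 CPM of the induced and 1715 CPM of the control library. VIM made up 37.2% of the filament counts after induction, against 10.6%. NEFM went the other way, with 24.0% against 36.7% of the filament counts, although its own level was higher in the induced library. The neuronal genes together held 59.3% against 83.8%, and the keratins 1.06% against 1.27%.

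The per-cell view used cells thinned at random to 53000 counts each, which kept 562 induced and 766 control cells and left out 104 and 190. At that depth, the share of cells with a VIM count was 96.4% for induced (94.6 to 97.8) and 63.8% for control cells (60.3 to 67.2). Unthinned, these shares were 97.3% and 69.7%. VIM spread over a wide range within each library. An induced cell had a median of 54 VIM counts, with a 5th to 95th percentile range of 1 to 288 and a highest value of 828. A control cell had a median of 1, a range of 0 to 48.8 and a highest value of 323. The libraries overlapped: 92.2% of induced cells lay above the control median (89.6 to 94.3), but only 53.9% lay above the control 95th percentile (49.7 to 58.1). No VIM count was found in 20 induced and 277 control cells, and at least 100 in 152 induced cells (27.0%) and 14 control cells (1.83%). VIM counts were more concentrated in the control library, where the 77 cells with the most VIM held 70.2% of its counts, against 40.0% in the 57 such cells of the induced library. No cell type known to lack these genes was identified in the libraries, and the part of free RNA in these shares was not tested.

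Neuronal filament genes were found in nearly every cell of both libraries and differed in amount. NEFL was found in 99.1% of induced and 99.6% of control cells, NEFM in 99.3% and 99.7%, and PRPH in 97.3% and 99.6%. The median NEFL count was 37 in an induced and 18 in a control cell, that of NEFM 46 against 29, and that of PRPH 28.5 against 15. At the upper end, 50.2% of induced cells exceeded the control 95th percentile of NEFL (46.0 to 54.4), 32.6% that of PRPH (28.7 to 36.6) and 23.8% that of NEFM (20.4 to 27.6). INA was found in 95.7% of induced and 98.7% of control cells, with medians of 9 and 7. NES was found in 92.3% and 93.5%, with medians of 4 and 3. NEFH had a count in 3 induced and 6 control cells.

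Each keratin was found in a minority of thinned cells, but at least 1 of the 3 had a count in 387 of the 562 induced and 443 of the 766 control cells. KRT18 had a count in 21.5% of induced cells (18.2 to 25.2) and 10.3% of control cells (8.25 to 12.7). KRT8 had one in 26.0% (22.4 to 29.8) and 19.97% (17.2 to 23.0), and KRT19 in 45.4% (41.2 to 49.6) and 43.1% (39.5 to 46.7). Unthinned, KRT19 had a count in 60.1% and 55.2% of cells. For KRT8 and for KRT19 the intervals of the libraries overlapped. KRT18 was carried by few cells: 14 induced cells with at least 10 KRT18 counts held 54.7% of its thinned counts, and 2 control cells held 36.4%. Those 14 induced cells had a median of 218 VIM counts (lowest 41) and a median of 9 NEFM counts.

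**Figure D2:**
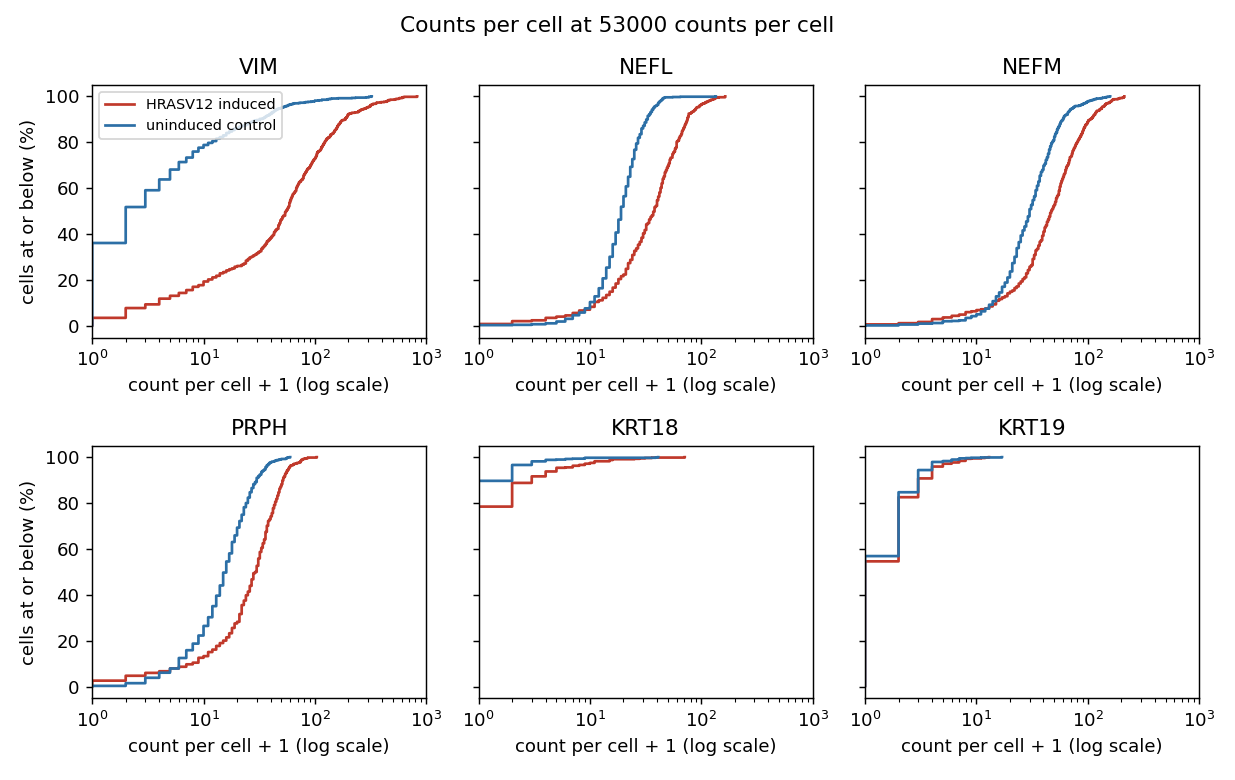
Cumulative percent of cells (y axis) at or below each count per cell plus 1 (log x axis), at 53000 counts per cell, for 562 induced (red) and 766 control (blue) cells. The VIM curves are far apart from the start (20 induced against 277 control cells at 0), the NEFL, NEFM and PRPH curves shift with almost no cell at 0, and the KRT19 curves lie close together.

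The filament gene with the most counts in a cell differed between the libraries. VIM led in 43.8% of the induced (39.6 to 48.0) and 8.88% of the control cells (6.96 to 11.1). NEFM led in 41.6% (37.5 to 45.8) and 67.5% (64.0 to 70.8), PRPH in 5.52% and 14.4%, and NEFL in 6.94% and 5.61%. VIM exceeded the sum of the 5 neuronal genes in 108 induced cells (19.2%, 16.0 to 22.7) and in 29 control cells (3.79%, 2.55 to 5.39). The summed neuronal count had a median of 124.5 in an induced and 72 in a control cell.

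Co-expression was described by Spearman's rho over the thinned cells of each library. The cells of a library share 1 culture and 1 preparation, counts of low genes are sparse, and no p is given. The neuronal genes went together in the induced library: rho was 0.73 for NEFL and NEFM, 0.62 for NEFL and PRPH, 0.48 for NEFL and INA, and 0.47 for NEFM and PRPH. In the control library the same pairs had 0.50, 0.14, 0.22 and -0.17. NEFL with NEFM was the only neuronal pair above 0.25 in the control library, and all 6 pairs among NEFL, NEFM, INA and PRPH were above 0.4 in the induced library. Whether the libraries differ in these values was not tested. VIM with NES had 0.43 after induction and 0.10 without it. VIM with NEFL, NEFM, INA and PRPH had rho from -0.10 to 0.19 in induced and from -0.09 to 0.16 in control cells. In G1 cells alone VIM with INA had -0.33 in induced and -0.20 in control cells, and VIM with PRPH had -0.11 and -0.08 in place of 0.09 and 0.16. KRT18 had 0.33 with VIM and -0.26 with NEFM in induced cells, and 0.07 and -0.04 in control cells. KRT8 and KRT18, the partner chains, were both found in 50 induced cells, 8.90% (6.68 to 11.6) against 5.59% from the product of their shares. In the control library 22 cells held both, 2.87% (1.81 to 4.32) against 2.06%.

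**Figure D3:**
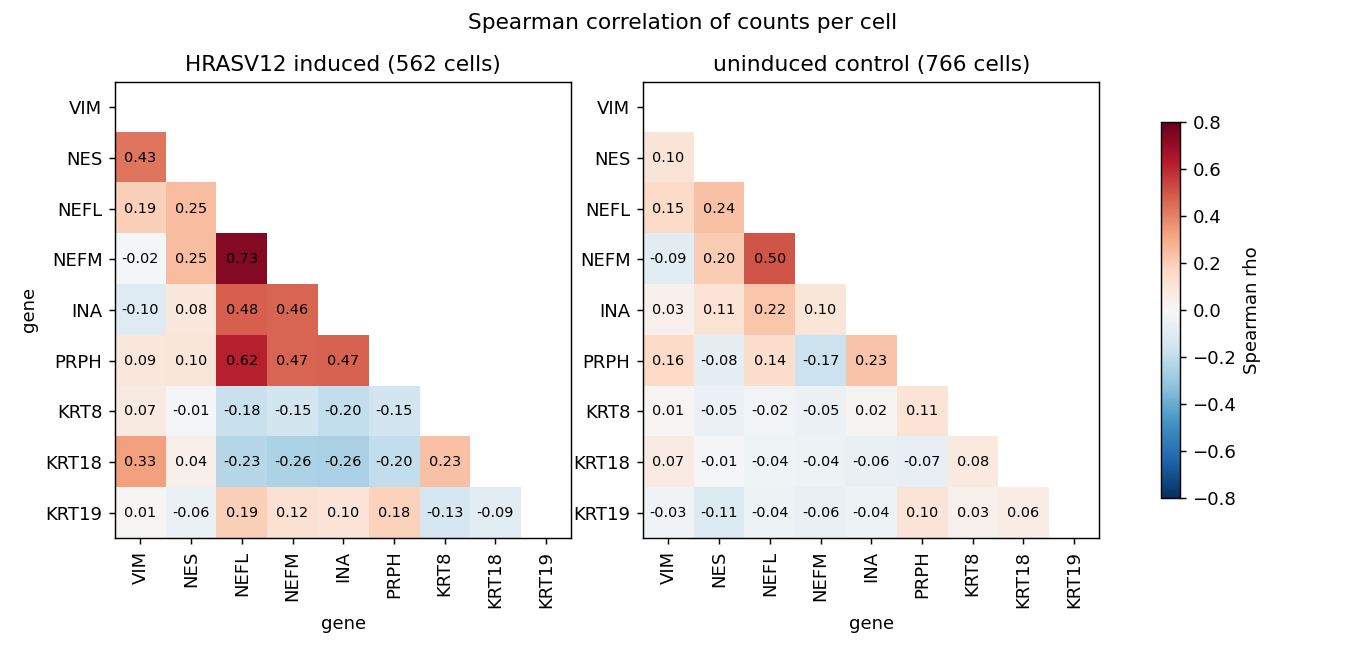
Spearman rho between filament genes over thinned cells of the induced (left) and control (right) library, each box a pair of genes; NEFH was left out because it had counts in 3 and 6 cells. The block of NEFL, NEFM, INA and PRPH is red in the induced library, while VIM lies between -0.10 and 0.19 with the 4 of them.

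Mean counts of the other filament genes were also read in cells grouped by their VIM count. From the 20 induced cells without VIM to the 152 with at least 100 counts, the mean NES count was 2.00 and 9.07, the mean NEFL count 17.6 and 45.1, and the mean KRT18 count 0.05 and 2.48. The mean PRPH count was 13.6 and 29.1, with a highest mean of 32.2 in cells with 4 to 9 VIM counts. NEFM differed less, at 44.1 and 54.2, and INA was 6.55 and 7.51 with a highest mean of 11.02 in cells with 4 to 9 VIM counts. KRT18 had no count in the 42 induced cells with 4 to 9 VIM counts. The end groups show more of a relation than all cells do. Over thinned induced cells the rho of VIM was 0.19 with NEFL and 0.09 with PRPH, and in G1 cells -0.01 and -0.11. In the control library NEFL, NEFM and INA were lower in the 14 cells with at least 100 VIM counts than in the 277 without. Their means were 15.4 against 17.9, 16.3 against 35.5, and 3.21 against 6.80. Control NEFL was highest, at a mean of 23.4, in the 65 cells with 30 to 99 VIM counts. The mean KRT18 count was 6.64 in those 14 control cells and 0.148 in the 277, and both control cells with at least 10 KRT18 counts were among the 14. Total counts per cell, before thinning, averaged 95917 in the 20 induced cells without VIM and 121313 in the 152 with at least 100 counts, and 109677 and 89047 in those end groups of the control library.

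**Figure D4:**
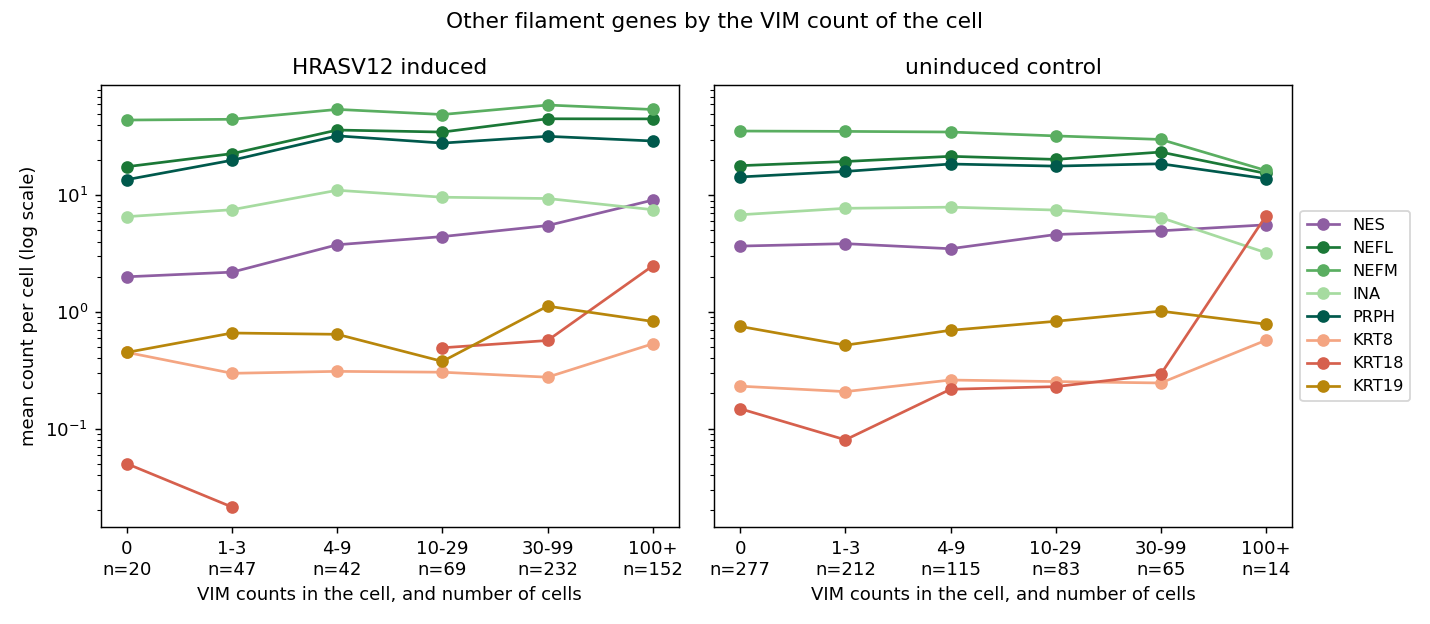
Mean count per cell (log y axis) of the other filament genes in thinned cells grouped by their VIM count (x axis, with the number of cells), in the induced (left) and control (right) library; NEFH is not drawn and a mean of 0 leaves a gap. NES and KRT18 are highest in cells with at least 100 VIM counts, which number 152 after induction and 14 without it.

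Genes most like each filament gene over induced cells were taken from 5120 genes of at least 25 CPM, by the highest rho over 562 cells. For VIM they were ANXA2 (0.74), a membrane-binding annexin, LGALS1 (0.69), a galectin, and MYL12A (0.66), a myosin light chain. For NES they were ANXA2 (0.45), PLK2 (0.44) and ACTR3 (0.44). NEFL was nearest to NEFM (0.73), the growth cone protein gene GAP43 (0.69) and the microtubule-binding MAP1B (0.66). NEFM was nearest to NEFL, KIF21A (0.59) and MAP1B (0.54), INA to NSG2 (0.52), SCN3B (0.49) and SYT1 (0.48), and PRPH to GAP43 (0.68), STMN2 (0.67) and NEFL (0.62). For KRT8 and KRT19 no gene passed 0.26, which in such sparse counts is no finding. KRT18 had a count in fewer than 25% of cells and was not ranked.

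Over the 766 control cells and 5151 genes, VIM was nearest to TMSB10 (0.52), a thymosin, S100A10 (0.47) and RHOC (0.43). NEFL and NEFM were again nearest to each other, followed by FSCN1 (0.30) and IDI1 (0.28) for NEFL and by DNAJA1 (0.42) and NCL (0.39) for NEFM. PRPH was nearest to STMN2 (0.57), a microtubule regulator of neurons, S100A6 (0.51) and MLLT11 (0.49). NES was led by TPM3 (0.30), SMS (0.28) and PCOLCE (0.28), and INA by SCN3B (0.26), MAP1B (0.26) and STMN2 (0.25). KRT19 reached 0.22 with S100A6. ANXA2 and LGALS1 were also among the 10 nearest to VIM in control cells, at 0.40 and 0.41, and TPM3 among the 10 nearest to NES in induced cells, at 0.43.

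The libraries differed in cell cycle phase, and the filament genes differed by phase. Scores placed 60.9% of induced and 20.4% of control cells in G1, 9.61% and 25.2% in S, and 29.5% and 54.4% in G2 or M. Free RNA can also reach such scores. Within G1, thinned VIM stood at 1895 against 515 CPM (ratio 3.68), within S at 890 against 89.5 CPM (9.94), and within G2 or M at 1089 against 143 CPM (7.60). VIM was thus higher in the induced library in each phase, with the smallest ratio in G1, where the control level was highest. The size of these ratios depended on the cluster highest in endothelial markers, described below. Over all cells without that cluster, VIM stood at 1543 against 266 CPM in G1 and 609 against 98.3 CPM in S. In G2 or M it stood at 980 against 132 CPM. The ratio was then still smallest in G1, but the phases lay closer together. NEFL had ratios of 2.37 in G1, 1.28 in S and 1.60 in G2 or M, and NEFM 2.15, 1.19 and 1.32. PRPH had 1.43, 1.38 and 1.61. KRT19 had ratios of 1.00, 1.06 and 1.01 in thinned cells, while over all cells it stood at 18.9 against 17.7 CPM in G1, 12.9 against 10.6 CPM in S and 14.7 against 11.9 CPM in G2 or M. KRT18 had ratios of 1.76, 4.54 and 3.34, of which the S value rested on 47 induced and 37 control counts. Over all cells in S, KRT18 stood at 14.8 CPM in induced and 3.51 CPM in control cells. Without the cluster highest in endothelial markers, described below, these S levels were 4.23 and 3.51 CPM. That setting gave 16.1 and 4.41 CPM in G1, and 8.76 and 3.27 CPM in G2 or M. In that setting KRT18 remained well above the control level only outside S phase, where 67 induced cells were left in S. The setting still held the cluster lowest in MALAT1, described below, whose induced cells held 48.3% of the induced KRT18 counts. Levels by phase without both clusters were not computed, so these values do not show a trait of the phases.

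Clustering of all 1622 cells gave 9 clusters, which were left unnamed, and 2 of them bore on the filament genes. The first, of 52 induced and 18 control cells, was led by CD93, COL4A1, MMP1, HTRA1 and EMCN and had the highest level of a list of 12 endothelial markers, at 754 CPM in its induced and 671 CPM in its control cells, against 54.8 and 100 CPM in the other cells. All 12 markers had counts in its induced and 11 in its control cells (CLDN5 was at 0). All 12 also had counts in the other cells of both libraries, so the levels and not the presence of counts set it apart. CDH5 stood at 40.9 and 32.2 CPM in the cluster, against 0.185 and 0.479 CPM in the other cells. PECAM1 stood at 29.3 and 15.1 CPM, against 2.36 and 2.89 CPM. EGFL7 held much of the list's level, at 43.1 and 91.3 CPM in the other cells and 214 and 424 CPM in the cluster. MYCN stood at 407 and 1145 CPM there, against 396 and 470 CPM in the other cells, while the adrenergic list stood at 1525 and 2919 CPM against 4324 and 4903 CPM. The list of fibroblast and stromal markers stood at 1553 and 820 CPM there, against 491 and 343 CPM in the other cells. In this cluster VIM stood at 5443 CPM in induced and 2564 CPM in control cells. KRT18 stood at 126 and 79.5 CPM and NES at 206 and 101 CPM. The neuronal genes were low: NEFM stood at 214 and 138 CPM, NEFL at 261 and 146 CPM, and INA at 37.4 and 64.4 CPM. These 70 cells held 21.6% of the induced and 21.5% of the control VIM counts, and 39.3% and 26.0% of the KRT18 counts. Without them the VIM log2 ratio was 3.10, against 3.04 in all cells.

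The second cluster, of 178 induced and 4 control cells, had the lowest MALAT1, a nuclear RNA, with a median of 209 CPM over its cells. The median was 205 CPM in its induced and 11363 CPM in its 4 control cells, and the median mitochondrial percent of its induced cells was 6.41. Its induced cells held VIM at 1419 CPM, NEFM at 800 CPM, NES at 55.7 CPM and KRT18 at 25.8 CPM. They held 48.3% of the induced KRT18 counts. Without both clusters, a setting chosen after seeing the data, KRT18 stood at 4.11 against 3.53 CPM, under the floor, with a log2 ratio of 0.18 in place of 1.83. The difference in KRT18 thus lay in these clusters. Of the 14 induced cells with at least 10 KRT18 counts, 8 were in the first and 6 in the second cluster, as were both such control cells in the first. KRT8 likewise had a log2 ratio of 0.17 without both clusters, against 0.53 in all cells. VIM (2.98), NEFL, NEFM, PRPH and NES were at least 1.5-fold higher in the remaining cells. Whether cell quality or another cell type had a part in these values was not tested.

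Of the remaining clusters, VIM and the neuronal genes were high together in 180 induced cells led by HMOX1 (2 control cells were in that cluster). These induced cells held VIM at 1763 CPM, NEFL at 1142 CPM, NEFM at 1498 CPM and PRPH at 761 CPM, the highest level of the neuronal genes in any cluster. In 91 induced cells that clustered with 306 control cells, VIM stood at 186 CPM, near the 137 CPM of those control cells, and KRT18 at 0.993 against 3.63 CPM. HRAS stood at 101 CPM in those 91 cells and at 173 CPM in the 180. NEFL was still higher in the 91 induced cells than in the control cells of the cluster, at 505 against 380 CPM, as was NEFM, at 959 against 617 CPM. In clusters 3, 4 and 5, which also mixed the libraries, these genes lay closer or the other way. In cluster 4 NEFL stood at 359 against 346 CPM and NEFM at 707 against 673 CPM. In cluster 5 NEFL stood at 381 against 388 CPM and NEFM at 798 against 763 CPM. In cluster 3, with 6 induced cells, NEFL stood at 437 against 370 CPM and NEFM at 428 against 487 CPM. In cluster 6, highest in endothelial markers, NEFL stood at 261 against 146 CPM and NEFM at 214 against 138 CPM. A cluster mostly of 1 library may stand for that library in place of a cell type, and clusters were built from all genes, so these levels are descriptions.

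**Figure D5:**
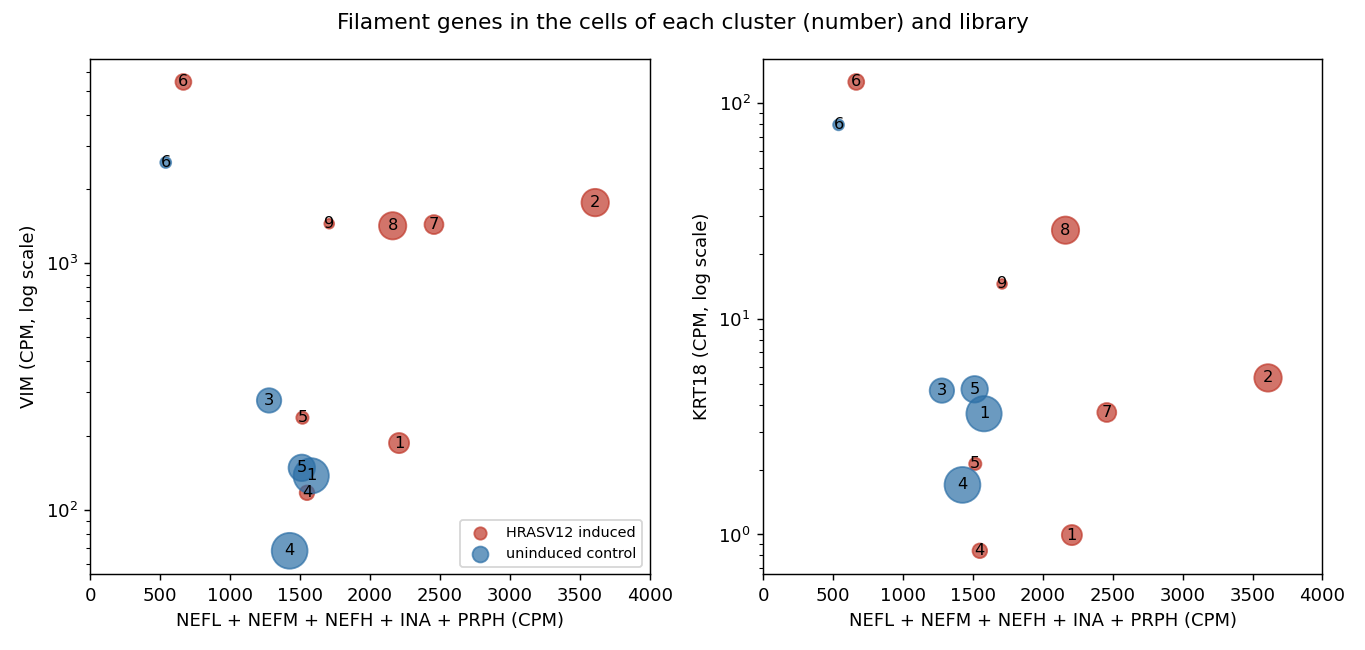
VIM (left) and KRT18 (right), in CPM on log axes, against the summed neuronal filament genes in CPM, for each cluster (number) with at least 12 cells of a library; the area of a point grows with its number of cells, red for induced and blue for control. Cluster 6, highest in endothelial markers, is at the upper left in both libraries, and cluster 2, of 180 induced cells, is at the far right with VIM at 1763 CPM.

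Other genes of the filament system were read from lists. Of 27 other cytoplasmic filament genes, 16 were in the table and 2 were measured: KRT10, a keratin, stood at 420 against 219 CPM (log2 ratio 0.94), and SYNM, which encodes synemin, at 30.2 against 24.6 CPM (0.29). KRT10 was thus far above KRT8, KRT18 and KRT19 in CPM, which compares counts and not amounts of these transcripts. The levels of KRT8 and KRT18 are uncertain, as given above. DES and GFAP, the filaments of muscle and glia, were under 10 CPM in both libraries. The nuclear lamins went different ways: LMNA stood at 440 against 284 CPM (0.63), while LMNB1 had a log2 ratio of -0.99 and LMNB2 stood at 16.9 against 30.7 CPM (-0.82).

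Of 7 measured linker and desmosome genes, 3 were higher and 1 was lower by 1.5-fold or more, with a median log2 ratio of 0.33. EPPK1, which encodes the keratin- and vimentin-binding epiplakin, stood at 13.7 against 2.12 CPM (2.24) and JUP, which encodes plakoglobin, at 57.7 against 31.1 CPM (0.87). PKP4 and TCHP were lowest, at -0.68 and -0.21. Of 16 measured genes of filament assembly, transport and turnover, 5 were higher and 3 lower by 1.5-fold or more, with a median of 0.32. The neuronal kinesins KIF5A and KIF5C, motors of neurofilament transport, stood at 37.9 against 13.7 CPM (1.40) and 144 against 64.1 CPM (1.16). AURKB and CDK1, mitotic kinases that phosphorylate vimentin, were lowest, at -1.04 and -0.88, in the library with fewer cells in G2 or M.

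Marker lists gave the setting. No gene of 17 epithelial markers in the table was measured, and they summed to 17.2 against 15.7 CPM, with EPCAM and CDH1 under the floor at 0.846 against 0.692 CPM and 2.82 against 4.82 CPM. Of 14 measured adrenergic markers, 0 were higher and 3 lower by 1.5-fold or more, with a median of -0.12. ISL1 (0.52) and PHOX2A (0.36) were among the higher and CHGA (-1.17) among the lower of them. Of 6 measured fibroblast and stromal markers, 4 were higher and 1 was lower by 1.5-fold or more, with a median of 1.35. ACTA2 stood at 71.2 against 4.07 CPM and TAGLN at 12.7 against 0.367 CPM, while PDGFRB (-1.21) and TWIST1 (-0.35) were lowest. The measured endothelial markers were EMCN (2.03), ESAM (1.47) and EGFL7 (-0.84), the measured Schwann cell precursor marker was PMP22 (0.30), and no immune marker was measured (3.87 against 2.80 CPM in sum). Whether cells of another type had a part in the filament values was not tested.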

How the data were processed

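Droplet libraries (10x Genomics, 3' chemistry) were made, per the labels, from 1 induced and 1 untreated culture. Reads were handled with kallisto and bustools, per the submitters' processing notes. Tool versions, genome build and annotation: not given in the sources used here. In the deposited matrix the authors give molecule counts as whole numbers for 36027 genes in 1622 cells, along with each cell's type. They also deposited the percent of mitochondrial counts per cell and marked all 1622 cells as singlets. No source used here says how cells and doublets were removed. Column sums differed from the annotated totals by at most 192 counts.

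Counts were summed per library and scaled to CPM, and log2 ratios had 1 CPM added to both levels, so that differences of low genes come out too small. The floor for a measured gene was 10 CPM in 1 library or both. Intervals (exact Poisson, exact conditional, Clopper-Pearson) are at 95% and cover counting error only. A count of 0 allows 3 counts, or 0.0373 CPM after induction and 0.0315 CPM without it. Counts were of molecules at the 3' end and were not divided by length. Scripts ran in Python 3.11.15 with scipy 1.17.1. Phases were scored and cells clustered with scanpy 1.11.5 (Leiden, 2000 variable genes, 30 components, 15 neighbours, resolution 0.5). The edgeR 4.0.16 and DESeq2 1.42.0 packages gave scaling factors only. The fold calls and the ranking of genes by rho were tested on simulated counts, and thinning was checked on part of the cells. Phase scores and clusters were not tested in this way.

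The genes, lists and settings were chosen with earlier results of these data known. The text names the 10 genes, the 2 highest and 2 lowest measured genes of each list, and the 3 genes most like each filament gene with a count in at least 25% of cells. Some genes that this rule or the lists would name are not reported here. DES, GFAP, TH, EPCAM, CDH1, CDH5, PECAM1, MYCN and HRAS were named after their values were seen, as were the leading genes of clusters. Alternatives were other scalings, pooling, cell subsets, pseudocounts and filters on low genes, of which 2 cell subsets were chosen after seeing the data.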

Additional observations from a re-analysis of the deposited data

How the results depend on the processing

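No paired analysis was possible because each group had 1 library, and no replicate could be left out. Under 16 alternatives the number of filament genes at least 1.5-fold higher was 4 to 6 and the number at least 1.5-fold lower was 0. No log2 ratio changed sign under the alternatives run, which were 15 for NEFH, KRT8, KRT18 and KRT19 and 16 for the other 6 genes, since the 50 CPM filter left those 4 out. The VIM log2 ratio of 3.04 moved beyond its counting interval under 13 of them. It was 3.15 with TMM factors, 3.20 with DESeq2 size factors, 2.95 when scaled to totals free of ribosomal protein and mitochondrial genes, 3.07 as a mean of per-cell CPM, 2.92 in thinned cells and 3.01 with a pseudocount of 5 CPM. It was 2.97 without the 5% of cells with the most counts, 3.01 without the 20% with the fewest, 2.95 in cells past a limit on mitochondrial percent and on MALAT1, 3.10 without the cluster highest in endothelial markers and 2.98 also without that lowest in MALAT1. It was 2.03 in G1 cells only, at 1845 against 451 CPM, and 2.53 in G1 cells without the cluster highest in endothelial markers, at 1543 against 266 CPM. The limit on mitochondrial percent (8.52) and MALAT1 (238 CPM) was set at control 5th percentiles. That limit left out 260 induced cells (39.0%) and 85 control cells (8.89%).

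Scaling moved all genes: the median log2 ratio of all measured genes was -0.04 in the CPM comparison, 0.08 with TMM, 0.13 with DESeq2 and -0.14 when scaled to totals free of those genes. The genes at least 1.5-fold higher and lower numbered 930 and 697 in CPM, 1285 and 454 with TMM, 1472 and 371 with DESeq2, and 842 and 1235 with those totals. The KRT18 log2 ratio was 1.06 in G1 cells and 1.57 without the cluster highest in endothelial markers. The rho of VIM with other filament genes moved with the phase and depth of the cells, and in G1 cells alone it went from 0.19 to -0.01 for NEFL, from -0.10 to -0.33 for INA and from 0.09 to -0.11 for PRPH in induced cells, and from 0.03 to -0.20 for INA and from 0.16 to -0.08 for PRPH in control cells.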

Other observations

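VIM and the neuronal filament genes were set beside the HRAS count of the cell, a relation outside the comparison of the libraries. In thinned induced cells VIM stood at 1201 CPM in the 69 cells with 0 to 3 HRAS counts, 1411 CPM in the 165 with 4 to 6, 1582 CPM in the 152 with 7 to 9 and 1823 CPM in the 176 with at least 10. The spread between cells was wide: the 5th to 95th percentile of VIM counts was 0 to 191.8 in the lowest and 6.75 to 299 in the highest group. NEFL stood at 520, 689, 793 and 894 CPM in the same 4 groups, and PRPH at 490, 497, 581 and 591 CPM. NES (107, 110, 113 and 107 CPM) and NEFM (998, 1034, 991 and 1067 CPM) had no such order. KRT18 stood at 23.8, 23.3, 15.8 and 13.6 CPM. In the control library VIM stood at 312 CPM in the 183 cells with 0 to 3 HRAS counts, at 167 CPM in the 315 with 4 to 6, and at 176 and 184 CPM in the 2 higher groups. Control NEFL stood at 350, 369, 374 and 400.1 CPM and control PRPH at 324, 305, 306 and 251 CPM in the 4 groups. These levels are pooled over cells of 1 library, and no test was made.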
